A study of Mus musculus with 6 samples.

Results

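The signaling lymphocytic activation molecule (SLAM) family comprises cell surface receptors of the immunoglobulin superfamily, and its expression was examined in monocytes sorted from the inflamed CNS. The members were chosen by name, with earlier results of these data known. They are *Slamf1*, *Slamf6*, *Slamf7*, *Slamf8*, *Slamf9*, *Cd48*, *Cd84*, and *Ly9*, which are 8 of the 54232 genes in the deposited files. Of these, 7 passed the filter on low counts that 11254 genes passed in all, and *Slamf1* did not. Monocytes came from GFP+ recipient mice that were lethally irradiated and received equal parts of CD45.1 bone marrow that was WT and CD45.2 bone marrow that was *Ifnar1*-/-, so that WT and *Ifnar1*-/- monocytes developed in the same kind of host. EAE, a model of CNS autoimmunity induced by immunization with a myelin antigen, was started 6 to 7 weeks after transfer, and all mice were given 30000 IU of rIFN-β daily. At disease peak, monocytes of donor origin (GFP-CD45+CD11b+Ly6ChiLy6G-) were sorted by FACS, and RNA-seq was performed on 3 WT and 3 *Ifnar1*-/- libraries. The ages of the mice are not given in the sources used here, and the recipient mice numbered 3, but which libraries share a mouse is not given either, so p-values measure the spread between these libraries. No library came from mice without rIFN-β, and the groups therefore differ in the receptor for type I interferon and in the CD45 allele, not in treatment.

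Most SLAM receptors bind the same receptor on a neighboring cell, whereas CD48, a GPI-anchored member, binds CD2 and CD244. Their cytoplasmic tyrosine motifs recruit the small SH2 adaptors SAP (*Sh2d1a*) and EAT-2 (*Sh2d1b1*), which couple them to Src family kinases, and without these adaptors the same motifs can recruit phosphatases. On myeloid cells, family members take part in adhesion, phagocytosis, and control of the phagosome, and SLAMF8 and SLAMF9 have short tails without this motif.

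Libraries held 4531782 to 7321380 expected counts, and a count of 3 corresponded to 0.427 to 0.638 normalized CPM (CPM, counts relative to the TMM-scaled library size), which covers counting error only. In the edgeR quasi-likelihood test, 188 of 11254 genes (1.67%) were higher and 52 (0.462%) lower in WT monocytes, with adjusted p no higher than 0.05 and a difference of 1.5-fold or more, that is 2.13% in either direction. Of 12 interferon response genes, 11 were higher in WT monocytes, with a median log2 fold change of 4.28 over the list. *Ifnar1* itself was at 111 to 153 normalized CPM in WT and at 102 to 109.9 in *Ifnar1*-/- monocytes (log2 fold change 0.28, SE 0.15, adjusted p = 0.360 from edgeR), and gene-level counts carry no information on exons. All 7 monocyte and sort markers were well detected (at least 1121 counts in every library), and *Ly6c2*, which encodes an antigen of the sort gate, was the only one of them called, at 640 to 788 normalized CPM in WT and 177 to 337 in *Ifnar1*-/- monocytes (log2 fold change 1.40, SE 0.23, adjusted p = 0.00957 from edgeR). Of these 7 markers, 4 had a positive and 3 a negative log2 fold change. At an unadjusted p under 0.05 from edgeR there were 3 of the 7, beside 17.8% of all tested genes, so the markers were not all alike between the groups. In bulk RNA, fewer cells of a type and less RNA per cell cannot be told apart.

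CNS monocytes expressed mainly *Cd84*, *Slamf7*, *Slamf8*, and *Cd48*. Levels of different genes were set side by side in TPM, the deposited per-length unit. *Cd84*, a self-binding receptor found on many leukocytes, had the highest level in all 6 libraries, with a median of 141 TPM (range 106 to 172). *Slamf7*, also called CRACC, had a median of 61.4 TPM (23.9 to 79.4), and *Slamf8*, a short-tailed member, 59.1 TPM (41.1 to 91.8). *Cd48* followed at 36.5 TPM (23.8 to 40.3). *Ly9* (CD229), known mainly from lymphocytes, had a median of 11.1 TPM (4.99 to 16.1), *Slamf6* (Ly108) 11 TPM (9.87 to 17.0), and *Slamf9* 6.71 TPM (4.20 to 8.57). *Slamf1* (CD150), which gave the family its name, was lowest at 0.44 TPM (0 to 1.14).

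The order of these levels varied between libraries. *Slamf7* changed its place between the groups. It came directly after *Cd84* in 3 of 3 WT libraries and below *Slamf8* in 3 of 3 *Ifnar1*-/- libraries. In *Ifnar1*-/- libraries 1 and 3 *Slamf7* was below *Cd48* as well (23.9 against 37.5 TPM and 35.0 against 40.3 TPM). The ratio of *Slamf7* to *Slamf8* TPM was 1.56, 1.06, and 1.00 in the WT libraries and 0.455, 0.641, and 0.656 in the *Ifnar1*-/- libraries. In WT library 3 the margin over *Slamf8* was less than 1 part in 100. *Ly9* and *Slamf6* could not be ordered either, and *Ly9* was the higher of them only in WT library 1. In *Ifnar1*-/- library 3, *Ly9* was also below *Slamf9* (6.82 against 7.78 TPM). By median TPM, the other neighbors in the order had ranges that did not overlap. With TPM rescaled to protein-coding genes, the medians of both close pairs were in the reverse order. *Slamf8* (126.7) was then above *Slamf7* (122.6), and *Slamf6* (28.2) was above *Ly9* (21.6).

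Within each library, the 8 members were also expressed as a share of their summed TPM, since a single non-coding gene, *Rn7s2*, took 27.8% of all TPM in WT library 1 and at most 11.2% in the others. The *Slamf7* share was 24.0%, 19.7%, and 18.6% in WT monocytes and 9.70%, 15.7%, and 12.2% in *Ifnar1*-/- monocytes (20.8% ± 2.82 and 12.5% ± 3.04, SD, n = 3). These shares did not overlap between the groups. The *Ly9* share was likewise higher in every WT library (3.25% to 6.01% against 2.03% to 2.44%), whereas *Cd84* made up 39.7% to 42.6% of the family in WT and 43.2% to 46.7% in *Ifnar1*-/- libraries. As the shares sum to a fixed total, a lower share of one member raises those of the rest.

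**Figure D1:**
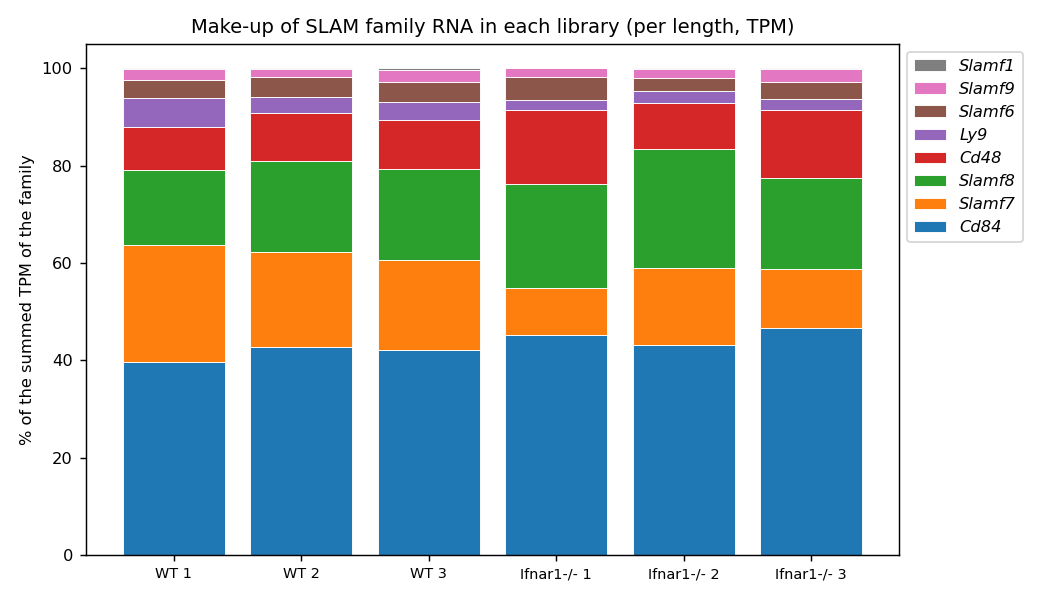
Make-up of SLAM family RNA in each of the 6 libraries, as the percent of the summed TPM (y axis) that each member contributes (colored segments, no error bars because each bar is 1 library). *Cd84* is the largest segment in every library, and the *Slamf7* segment is larger in the 3 WT libraries (18.6% to 24.0%) than in the 3 *Ifnar1*-/- libraries (9.70% to 15.7%).

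The comparison of WT with *Ifnar1*-/- monocytes gave the differences between these groups under rIFN-β treatment. The donors also differed in the CD45 allele, and the libraries held some T cell marker RNA. Which part of a difference came from type I interferon signaling in the monocytes themselves was not tested. None of the 7 tested SLAM members was called in either direction by edgeR, beside 2.13% of all tested genes. At an unadjusted p under 0.05, edgeR had 2 of the 7 (*Ly9* and *Slamf7*, both higher in WT) beside 17.8% of all genes in either direction and 9.69% higher in WT. DESeq2, the tool of the study's methods, called the same 2 genes, beside 3.83% of the 10952 genes to which it gave an adjusted p, and limma-voom called 0. The median log2 fold change of the 7 members was 0.13 (5 positive, 2 negative), and that of all tested genes was -0.01. In normalized CPM, WT libraries all lay above *Ifnar1*-/- libraries for 2 of the 7 members, beside 11.1% of all tested genes (23.4% in either direction).

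**Figure D2:**
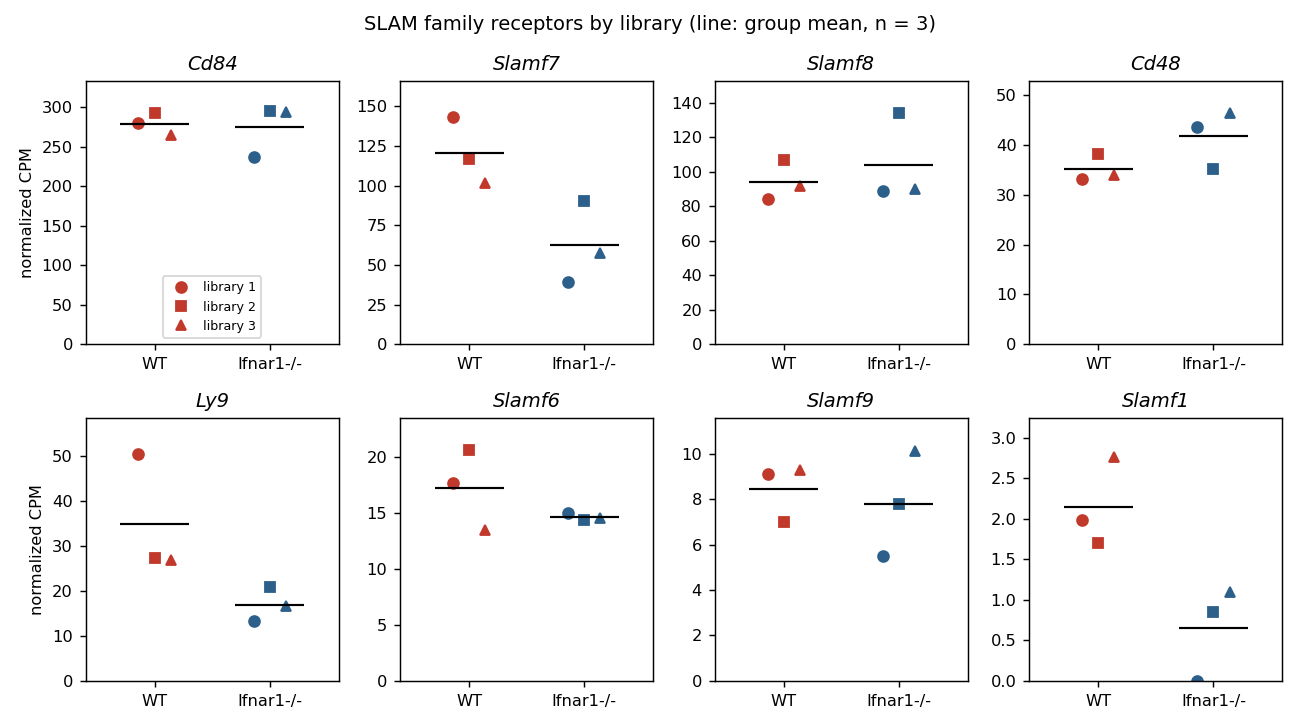
Normalized CPM (y axis, linear and starting at 0, scaled separately for each gene) of the 8 SLAM members in 3 WT (red) and 3 *Ifnar1*-/- (blue) libraries, with points for libraries and lines for group means. The groups are apart for *Slamf7*, *Ly9*, and the low-count *Slamf1*, and they overlap for the other 5 members.

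*Slamf7* and *Ly9* had the largest differences of the tested members, at about the same size and in the same direction. SLAMF7 is a self-binding receptor of activated macrophages, NK cells, and plasma cells that pairs with the integrin Mac-1 in phagocytosis. *Slamf7* (ENSMUSG00000038179.13) was at 143, 117, and 102 normalized CPM in WT libraries 1 to 3 and at 39.3, 90.2, and 57.7 in *Ifnar1*-/- libraries 1 to 3 (means 121 ± 20.8 and 62.4 ± 25.8, SD, n = 3). No WT library was as low as any *Ifnar1*-/- library, and *Ifnar1*-/- library 2 came nearest to the WT range. The log2 fold change was 0.95 (SE 0.26, 95% interval 0.37 to 1.54), that is 1.94-fold (1.29- to 2.91-fold), with an unadjusted p of 0.00457 and an adjusted p of 0.106 from edgeR. In a two-sided exact permutation test, p was 0.1, the smallest that 3 against 3 libraries allow. DESeq2 gave 0.97 with an adjusted p of 0.0154. Without *Ifnar1*-/- library 2 the edgeR value was 1.33 and passed the threshold (adjusted p = 0.0264), and without *Ifnar1*-/- library 1 it was 0.72 (adjusted p = 0.300).

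LY9 is a self-binding receptor with 4 immunoglobulin domains that is best known on T and B cells. *Ly9* (ENSMUSG00000004707.14) was at 50.4, 27.2, and 26.9 normalized CPM in WT and at 13.3, 20.8, and 16.7 in *Ifnar1*-/- libraries (34.8 ± 13.5 and 17.0 ± 3.78, SD, n = 3). The groups did not overlap, and WT library 1 stood above the other WT libraries. The log2 fold change was 1.05 (SE 0.27, 95% interval 0.45 to 1.65), that is 2.07-fold (1.37- to 3.14-fold), with an unadjusted p of 0.00286 and an adjusted p of 0.0842 from edgeR, and the exact permutation p was again 0.1. DESeq2 gave 1.06 (adjusted p = 0.0176). Without WT library 1 edgeR gave 0.68 (adjusted p = 0.227). *Ly9* lies within the span of *Cd244a* on the opposite strand, but the annotated exons of these genes share 0 bases. *Slamf7* shares 423 of its 4577 exon bases with the antisense gene *Gm37787*, which had at most 1 count in any library, and whether counting used strand is not given in the sources used here.

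SLAMF1 is a self-binding receptor that also serves macrophages as a sensor of bacteria on phagosomes. *Slamf1* (ENSMUSG00000015316.11) had 14, 8, and 14 counts in WT and 0, 5, and 6 counts in *Ifnar1*-/- libraries, which is 1.99, 1.70, and 2.76 against 0, 0.847, and 1.10 normalized CPM. All WT libraries were above all *Ifnar1*-/- libraries, but the exact Poisson intervals, which cover counting error only, ran from 3.45 to 15.8 counts for WT library 2 and from 2.20 to 13.1 for *Ifnar1*-/- library 3. *Slamf1* was below the filter and has no test among the 11254 genes. Fitted without the filter, it had a log2 fold change of 1.74 (SE 0.68, edgeR adjusted p = 0.129).

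For *Cd84*, *Slamf8*, *Cd48*, *Slamf6*, and *Slamf9* the groups overlapped. *Cd84* (ENSMUSG00000038147.13) was at 279.6, 293, and 264 normalized CPM in WT and at 237.5, 295, and 294 in *Ifnar1*-/- libraries. With the highest counts of the family, it also had the narrowest interval, with an edgeR log2 fold change of 0.02 (SE 0.15, adjusted p = 0.967) and a fold change interval of 0.807 to 1.27. A difference of 1.5-fold in either direction lay outside this interval.

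SLAMF8 is known as a brake on NADPH oxidase activity in phagocytes. *Slamf8* (ENSMUSG00000053318.7) was at 84.4, 107, and 91.6 normalized CPM in WT and at 89.0, 134, and 89.9 in *Ifnar1*-/- libraries (log2 fold change -0.15, SE 0.19, 95% interval -0.56 to 0.26, adjusted p = 0.724 from edgeR). *Cd48* (ENSMUSG00000015355.13), the ligand of CD244 and CD2, was at 33.2, 38.3, and 34.0 in WT and at 43.7, 35.3, and 46.5 in *Ifnar1*-/- libraries. *Ifnar1*-/- libraries 1 and 3 were above all WT libraries, and *Ifnar1*-/- library 2 lay within the WT range. The difference was -0.25 on the log2 scale (SE 0.15, 95% interval -0.59 to 0.09, adjusted p = 0.420 from edgeR), and it was 0.00 after correction for GC content and gene length.

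SLAMF6 is a self-binding receptor of T, B, and NK cells, and SLAMF9 is a short-tailed member reported on macrophages and dendritic cells. *Slamf6* (ENSMUSG00000015314.10) was at 17.6, 20.6, and 13.4 normalized CPM in WT and at 15.0, 14.4, and 14.5 in *Ifnar1*-/- libraries. The *Ifnar1*-/- libraries lay close together inside the wider WT range (log2 fold change 0.23, SE 0.20, 95% interval -0.20 to 0.67, adjusted p = 0.577 from edgeR). *Slamf9* (ENSMUSG00000026548.4) was at 9.11, 7.01, and 9.28 in WT and at 5.50, 7.80, and 10.1 in *Ifnar1*-/- libraries (log2 fold change 0.13, SE 0.27, 95% interval -0.47 to 0.73, adjusted p = 0.844 from edgeR). With 33 to 64 counts per library, *Slamf9* had as wide an interval as *Ly9*, and the interval of its fold change, 0.723 to 1.66, included 1.5-fold.

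Several SLAM members are lymphocyte receptors, and T cell marker RNA was found in all libraries, at the highest levels in WT libraries 1 and 3. The 12 T cell markers summed to 52.5, 23.8, and 60.4 normalized CPM in WT and to 24.1, 10.8, and 11.8 in *Ifnar1*-/- libraries, and 0 of the 12 were at 0 in every library. All 8 T cell markers that were tested had a positive log2 fold change (median 1.5), 6 of them at an unadjusted p under 0.05, and the lowest adjusted p was 0.103 from edgeR. In WT library 2 and *Ifnar1*-/- library 1 the T cell marker sum was nearly equal (23.8 and 24.1), whereas *Slamf7* was 2.97-fold, *Ly9* 2.05-fold, and *Slamf6* 1.38-fold higher in the WT library, a pair that was chosen after its values were seen and has no replicate. WT library 3, with the highest T cell marker sum, had the lowest *Ly9* (26.9, beside 27.2 in WT library 2), *Slamf7*, and *Slamf6* of the WT libraries. It also had the highest *Slamf1* (2.76). The markers in this sum differed between libraries. *Cd8a* and *Cd8b1* were at 10.5 and 6.71 in WT library 3 and at 0.996 and 0.712 in WT library 1, whereas *Cd4* was at 2.37 and 13.4. Of the B cell markers, *Pax5* was at 0 in every library and *Ighm* had 17 to 66 counts. Of the NK cell markers, which T cells can also express in part, *Ncr1* had at most 2 counts, *Nkg7* had 4 to 42, and *Gzma* had 2 to 39, with a log2 fold change of 1.62 for *Gzma* (SE 0.66, adjusted p = 0.229 from edgeR). The NK cell markers together summed to 5.10 to 19.2 normalized CPM in WT and to 1.69 to 5.89 in *Ifnar1*-/- libraries. The part of T or NK cell RNA in the *Slamf7*, *Ly9*, and *Slamf1* values was not tested. Sums of the other marker lists overlapped between the groups, with 5.95 to 11.1 against 3.56 to 9.93 for B cells, 20.6 to 30.2 against 15.1 to 26.7 for dendritic cells, 219 to 1207 against 595 to 1613 for neutrophils, and 257 to 328 against 294 to 375 for microglia.

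**Figure D3:**
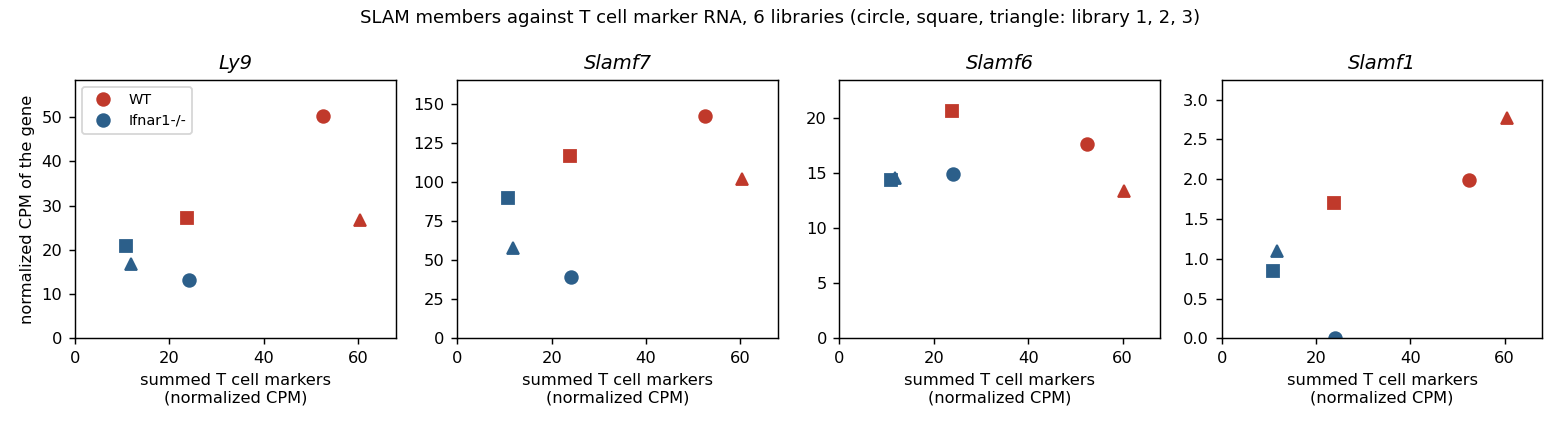
Normalized CPM of *Ly9*, *Slamf7*, *Slamf6*, and *Slamf1* (y axes, linear from 0) against the summed normalized CPM of the 12 T cell markers (x axis) in the 6 libraries, 1 point per library, WT in red and *Ifnar1*-/- in blue. WT library 2 and *Ifnar1*-/- library 1, a pair chosen after its values were seen and without a replicate, have T cell marker sums near 24. *Slamf7* is at 117 and 39.3 in this pair, and 39.3 is the lowest *Slamf7* value of all libraries.

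Among the genes that SLAM receptors bind and signal through, none passed the threshold. Of the 26 genes of the pathway lists, 24 were tested and edgeR called 0 in either direction, and DESeq2 and limma-voom also called 0. In edgeR, 4 had an unadjusted p under 0.05, all higher in WT, *Cd2*, *Csk*, and *Syk* among them. Beside these, 17.8% of all genes reached this level in either direction and 9.69% higher in WT. The median log2 fold change was 0.21 (18 positive, 6 negative) beside -0.01 for all tested genes. *Cd2*, the T and NK cell receptor for CD48, was at 7.97, 3.40, and 8.49 normalized CPM in WT and at 3.82, 0.678, and 2.39 in *Ifnar1*-/- libraries (log2 fold change 1.52, SE 0.52, adjusted p = 0.167 from edgeR). WT library 2 lay below *Ifnar1*-/- library 1 for this gene, as it did in the T cell marker sum. *Cd244a*, the other receptor for CD48, was at 28.2, 30.6, and 20.5 in WT and at 46.6, 19.2, and 23.9 in *Ifnar1*-/- libraries (log2 fold change -0.18, SE 0.30, adjusted p = 0.802).

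Among the adaptors, RNA was found for EAT-2 rather than for SAP. *Sh2d1b1* was at 5.26, 7.65, and 6.91 normalized CPM in WT and at 7.02, 7.63, and 11.4 in *Ifnar1*-/- libraries (log2 fold change -0.40, SE 0.27, adjusted p = 0.480 from edgeR). *Sh2d1a* had 0, 3, and 3 counts in WT and 0 in every *Ifnar1*-/- library, and *Sh2d1b2* had at most 3 counts in any library, so that both were at or under the floor of 3 counts. Of the 6 kinases, 5 had a positive and 1 a negative log2 fold change, and *Csk*, the negative regulator of Src family kinases, had the largest difference (log2 fold change 0.52, SE 0.15, adjusted p = 0.118), beside 0.46 for *Syk* (adjusted p = 0.228), 0.39 for *Fyn* (adjusted p = 0.308), and -0.04 for *Lyn* (SE 0.17, adjusted p = 0.937). The 3 phosphatases, the 4 downstream signaling genes, and the 8 phagosome and autophagy partners had log2 fold changes between -0.20 (*Tyrobp*) and 0.52 (*Plcg1*), with adjusted p from 0.291 upward. Among the last group, *Itgam*, whose product pairs with SLAMF7 and is part of the sort gate, had a log2 fold change of -0.01 (SE 0.18), and *Becn1* and *Pik3c3*, the autophagy partners of SLAMF1, had 0.08 and -0.11.

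**Figure D4:**
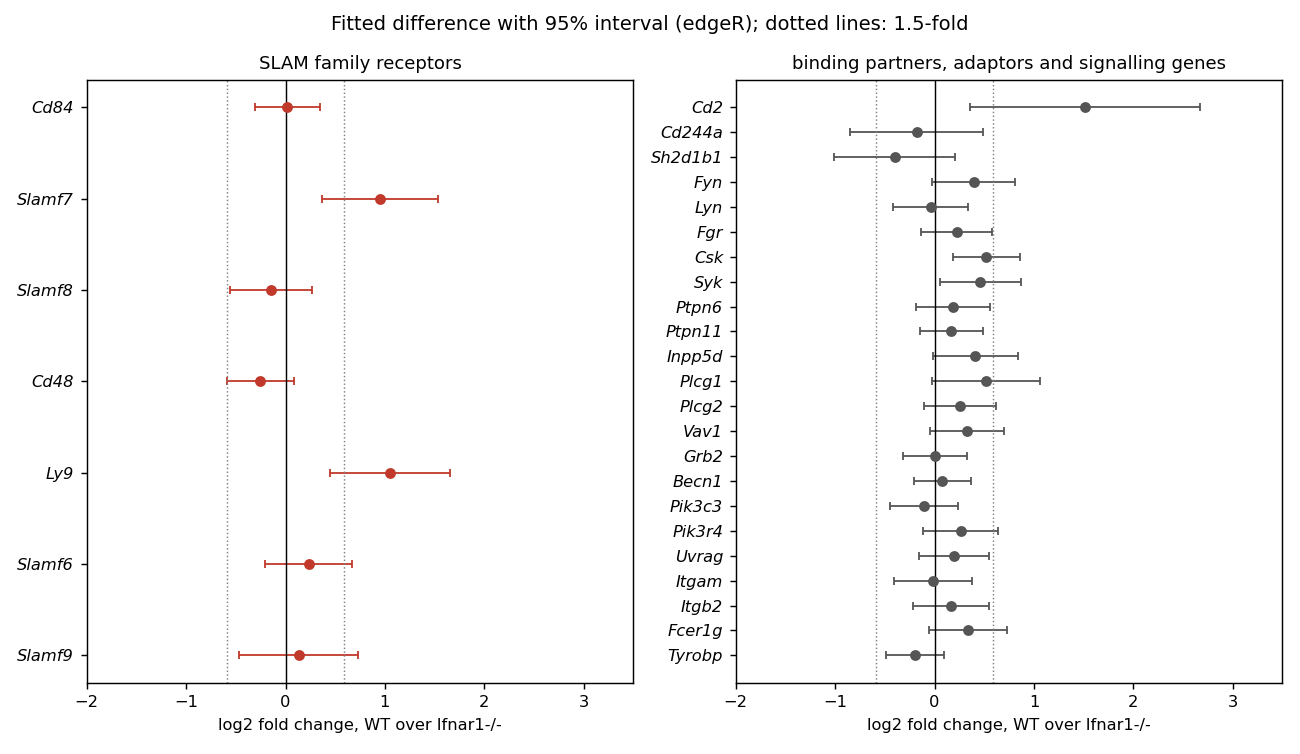
Log2 fold change of WT over *Ifnar1*-/- monocytes from edgeR (x axis; points, with bars for the 95% interval) for the 7 tested SLAM members (left) and the tested partner, adaptor, and signaling genes (right, 1 of the 24 not shown), with dotted lines at 1.5-fold. The intervals of *Slamf7* and *Ly9* lie above 0, and those of the other 5 members include 0.

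The 8 members lie within 1.00 Mb of chromosome 1 in GRCm38, from *Ly9* (start 171588624) to *Slamf8* (end 172590568). *Ly9* (171588624 to 171607410, minus strand), *Slamf7* (171632403 to 171653035, minus strand), and *Cd48* (171682009 to 171705258, plus strand) are adjacent members, and *Slamf1* (171767127 to 171801184), *Cd84* (171839697 to 171890718), and *Slamf6* (171917515 to 171953170) follow on the plus strand. *Slamf9* (172475358 to 172478575, plus strand) and *Slamf8* (172581758 to 172590568, minus strand) stand apart at the far end. The genes around *Ly9* and *Slamf7* had smaller fold changes. Of 41 other annotated genes that overlap this interval, 12 were tested, edgeR, DESeq2, and limma-voom called 0, and 0 had an unadjusted p under 0.05 in edgeR. Their log2 fold changes were between -0.18 and 0.31, with a median of 0.02. Besides each other, the tested genes nearest to *Ly9* and *Slamf7* were *Cd244a*, whose span contains *Ly9* (-0.18), and the member *Cd48*, beyond *Slamf7* (-0.25).

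**Figure D5:**
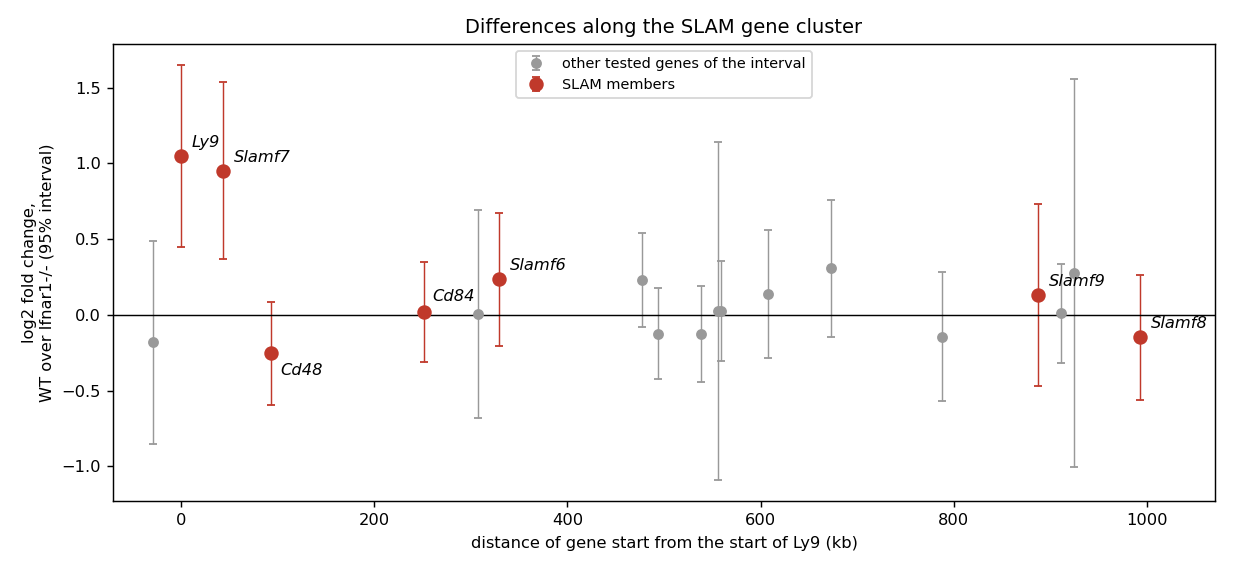
Log2 fold change of WT over *Ifnar1*-/- monocytes (y axis; bars are 95% intervals from edgeR) against the distance in kb of each gene's first base from that of *Ly9* (x axis), for the 7 tested SLAM members (red) and the 12 other tested genes of the interval (gray). *Ly9* (1.05) and *Slamf7* (0.95) stand above neighbors that range from -0.18 to 0.31.

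*Ptprc*, which encodes CD45 and carries the allele that distinguishes the donors, is on the same chromosome, 33.4 to 34.4 Mb from the members. How far donor-strain sequence extends from *Ptprc* in the CD45.1 mice is not given in the sources used here, and a difference in linked sequence cannot be told apart from the genotype at *Ifnar1*.

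Promoters were examined because the groups differed in interferon signaling. RefSeq windows of GRCm38.p6 (250 bases before to 50 after the start) were matched for 7 of the 8 members, all but *Ly9*. An interferon-stimulated response element was searched as GAAANNGAAA on both strands and was found in 1131 of 32851 windows (3.44%). It was present in 6 of the 9 matched interferon response genes and in 1 of the 7 matched members, *Slamf8*, beginning 15 bases before the start. The gamma-activated sequence TTCNNNGAA was found in 8.3% of windows and in 0 of the 7 members. The 250 bases before the start are given for *Slamf7*, which had the largest fold change of the tested members with a window, and for *Slamf8*, which holds the match, with the match in capitals (as read on the minus strand, where it is the reverse complement of the searched letters).
Slamf7, chr1:171649000-171649249, minus strand: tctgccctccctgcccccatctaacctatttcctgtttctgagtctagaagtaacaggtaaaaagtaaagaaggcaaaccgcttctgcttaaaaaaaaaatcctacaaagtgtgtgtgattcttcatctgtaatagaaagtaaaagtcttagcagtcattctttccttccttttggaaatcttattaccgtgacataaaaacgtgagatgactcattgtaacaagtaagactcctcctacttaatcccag
Slamf8, chr1:172590569-172590818, minus strand: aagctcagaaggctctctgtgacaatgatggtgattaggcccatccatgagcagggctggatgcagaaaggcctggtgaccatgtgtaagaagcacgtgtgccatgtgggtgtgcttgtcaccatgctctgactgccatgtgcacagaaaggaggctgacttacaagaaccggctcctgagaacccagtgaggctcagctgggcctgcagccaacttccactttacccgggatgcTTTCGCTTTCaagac

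The log2 fold change of *Slamf8*, which holds the match, was -0.15, and that of *Slamf7*, without a match in this window, was 0.95. The RefSeq start of *Slamf7* lies inside the annotated span of the gene used for the counts, so its window is not upstream of every annotated transcript. A match of letters is a description of the sequence and not a binding site.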

How the data were processed

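RNA-seq was carried out on 3 WT and 3 *Ifnar1*-/- libraries of sorted CNS monocytes, and groups were taken from the sample titles. Per the labels, the authors used STAR 2.6.0c and RSEM 1.2.31 with GRCm38, and the deposited files give expected counts, TPM (per length, with an equal total for every library), transcript lengths, and FPKM per gene, of which FPKM was not used. The labels and the study's methods name different library kits, and the use of strand in counting is not given in the sources used here. All 54232 gene identifiers matched GENCODE release M21, from which symbols and coordinates were taken. Expected counts were rounded, filtered (filterByExpr, minimum count 10), and normalized by TMM. WT and *Ifnar1*-/- libraries were compared by the edgeR 4.0.16 quasi-likelihood test (R 4.3.3) over all 11254 genes, without a block. Genes were called at a Benjamini-Hochberg adjusted p no higher than 0.05 and a difference of 1.5-fold or more, the thresholds of the study. Single genes were also compared by a two-sided exact permutation test on log2(normalized CPM + 0.5).

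Alternatives were DESeq2 1.42.0, limma-voom (limma 3.58.1), RLE normalization, no or a stricter filter, an adjusted p alone, removal of mitochondrial and rRNA genes, GC and length offsets, a replicate block, and leaving out each library, and for TPM shares 2 other scalings, of which TPM over protein-coding genes was added after the data were seen. The procedure was tested on simulated data. The members and gene lists were chosen with earlier results of these data known. Named genes were all members, the binding partners and adaptors, and any called pathway or neighboring gene; the genes most like a called member were to be named too, and no member was called. Markers, signaling genes, and neighbors named with values beside these were chosen after their values were seen. Values of 2 genes of the lists are not reported here.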

Additional observations from a re-analysis of the deposited data

How the results depend on the processing

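Among 17 alternatives, *Slamf7* and *Ly9* kept a positive log2 fold change in 17 of 17 (0.72 to 1.33 and 0.68 to 1.24), with adjusted p from 6.0e-06 to 0.300 and from 1.6e-05 to 0.301. The alternative with an adjusted p alone changes only the rule for calling, so its fold changes are those of the main fit by construction. The number of members called higher in WT was 2 without the filter on low counts (*Slamf7* and *Ly9*), 2 with DESeq2 (the same genes), and 1 with the replicate block in DESeq2 (*Slamf7*, 1.03, adjusted p = 0.0107, whereas *Ly9* had an adjusted p of 0.0856), and it was 0 to 1 when 1 library was left out. No alternative called a member lower. The only pathway gene called was *Cd2*, which made 1 gene without the filter (1.52, adjusted p = 0.00203) and 1 with GC and length offsets and the block (1.64, adjusted p = 0.0214). Over all genes, 610 were higher and 262 lower without the filter, and 314 and 105 with DESeq2. The number lower was 34 with GC and length offsets and 79 with offsets and block, and leaving out 1 library gave 110 to 204 higher and 7 to 41 lower. The causes were not tested. Small differences turned sign: *Cd48* to 0.0040 with the offsets and 0.0034 with offsets and block, and, when 1 library was left out, *Cd84* (-0.0042 without WT library 2, range -0.062 without *Ifnar1*-/- library 1 to 0.085), *Slamf9* (range -0.055 without *Ifnar1*-/- library 1 to 0.37), and *Slamf8* (range -0.24 to 0.087 without *Ifnar1*-/- library 2). Both other scalings of TPM multiply all members of a library by 1 factor, so they leave shares of the family as they are by construction and test nothing about them. The order of medians over libraries did change with TPM over protein-coding genes, for *Slamf7* with *Slamf8* and for *Ly9* with *Slamf6*.

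Libraries with the same number deviated from the means of their groups with correlations of 0.087, 0.027, and 0.289 for numbers 1, 2, and 3. WT library 1 correlated best with *Ifnar1*-/- library 2 (0.101), and WT libraries 2 and 3 with the *Ifnar1*-/- library of the same number. With 3 libraries per group, these correlations cannot decide whether equal numbers mark a shared mouse. The sources used here do not state it, so the numbers were not taken as pairs. With the replicate number as a block, edgeR called 0 members (adjusted p = 0.0993 for *Slamf7* and 0.123 for *Ly9*), and 182 genes higher and 38 lower. Depth limits *Slamf1* (at most 14 counts), which was below the filter (unadjusted p = 0.00867 in edgeR without the filter and 0.0444 in DESeq2), and *Sh2d1a*, which was at or under the floor.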
